A study of Mus musculus with 24 samples.

Results

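Whether the immunoproteasome inhibitor ONX-0914 changed gene expression differently in M1 than in M2 macrophages was asked gene by gene. For each gene, the effect of ONX-0914 in M1 (M1 with ONX-0914 minus M1) was set against its effect in M2 (M2 with ONX-0914 minus M2). The difference between these effects, M1 minus M2, was tested in all 14692 expressed genes. It used 16 of the study's 24 RNA-seq libraries, 4 in each of 4 groups. The cells were mouse peritoneal macrophages. M1 with ONX-0914 had received LPS, IFN-γ and the inhibitor, and M1 had received LPS and IFN-γ without it. M2 with ONX-0914 had received IL-4 and the inhibitor, and M2 had received IL-4 without it. The other 8 libraries, unpolarized M0 cells with and without ONX-0914, entered the estimate of the spread and served as another pair for description. The sources used here state no strain, age, dose or treatment time. The labels describe the 4 replicates in each group as independent, and each was a pool of cells from 2 to 3 mice.

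The proteasome degrades proteins tagged with ubiquitin. Immune cells also carry the immunoproteasome, in which PSMB8 (LMP7), PSMB9 and PSMB10 take the catalytic positions, and interferon-γ raises these subunits. ONX-0914 is selective for PSMB8. When degradation is blocked, cells are known to raise proteasome subunits through the transcription factor NRF1 (gene Nfe2l1), heat shock proteins through HSF1, antioxidant genes through NRF2, and amino acid and stress genes through ATF4. LPS and IFN-γ drive inflammatory and antimicrobial genes, in part through NF-κB, and IL-4 drives alternative activation through STAT6. The inhibitor was thus combined with unlike stimuli, and the sample titles do not give the order in which they were added.

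Levels below are in CPM, each library's counts brought to a common total, with the trimmed mean of M values (TMM) as scaling. The libraries held 18230924 to 22882972 counts each. Macrophage markers were present in every group: Lyz2, lysozyme, averaged 6193 CPM in M1 with ONX-0914 and 8588 CPM in M1, and 7736 CPM in M2 with ONX-0914 and 10114 CPM in M2. Nos2, the inducible nitric oxide synthase of M1 cells, averaged 885 CPM in M1 with ONX-0914 and 1979 CPM in M1, and had 0 or 1 count in each M2 library. Arg1, the arginase of M2 cells, averaged 966 CPM in M2 with ONX-0914 and 1947 CPM in M2, and 4.16 CPM in M1 with ONX-0914 and 8.57 CPM in M1. M1 replicate 2 was unlike the rest of its group: mitochondrial genes took 0.2997% of its counts, compared with 1.069% to 1.143% elsewhere in M1. In it 844 genes lay below the other 3 M1 libraries by 1.5 times, against 5 to 13 for each of the others. M2 with ONX-0914 replicate 4 had the highest level of its group for all 28 type I interferon-stimulated genes listed. Several results that turn on either library are given with and without it.

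The effect of ONX-0914 differed between M1 and M2 for 1981 of the 14692 genes (13.5%) at a Benjamini-Hochberg adjusted p under 0.05 in edgeR's quasi-likelihood test. The difference was positive, that is higher in M1 than in M2, for 559 genes (3.8%) and negative for 1422 (9.68%). It reached 1 on the log2 scale, or a factor of 2, for 67 positive genes (0.456%) and 179 negative genes (1.22%). ONX-0914 changed 6514 genes (44.3%) in M1, of which 2438 rose (16.6%) and 4076 fell (27.7%). It changed 5345 genes (36.4%) in M2, of which 2586 rose (17.6%) and 2759 fell (18.8%). By at least 1 on the log2 scale, 439 genes rose (2.99%) and 511 fell (3.48%) in M1, and 392 rose (2.67%) and 225 fell (1.53%) in M2.

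The split between positive and negative differences depended on how libraries were scaled. With DESeq2 size factors in the same test there were 716 positive and 1110 negative genes. With the median difference over all genes set to 0 there were 816 and 933, and with the 16 libraries fitted alone 805 and 671. No gene called in the main test was called with the opposite sign in these or in the other settings tried. The sign of genes that lost their call was not counted. Under all 3 of these scalings and also without M1 replicate 2 and without M2 with ONX-0914 replicate 4, 455 of the positive genes and 652 of the negative genes remained called. Counts by direction over the whole table therefore carry this limit, and single genes are described with their own values. Counts over a gene list are to be read beside the shares of all genes called, 3.8% positive and 9.68% negative. Counts of list members that rose or fell have their own shares of all genes. In M1 16.6% of all genes rose and 27.7% fell, and in M2 17.6% rose and 18.8% fell.

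Most unequal effects were a change in one state and none called in the other, or an equal direction with unequal size. Among the 1422 negative genes, 634 fell in M1 with no call in M2, 265 fell in both states, 257 rose in M2 with no call in M1, 153 fell in M1 and rose in M2, and 96 rose in both. Among the 559 positive genes, 171 rose in M1 with no call in M2, 154 rose in both, 123 fell in M2 with no call in M1, 55 rose in M1 and fell in M2, and 53 fell in both. The remaining 17 negative and 3 positive genes had neither effect called. In unpolarized M0 cells the effect of ONX-0914 lay nearer to the M2 effect than to the M1 effect for 439 of the positive genes (78.5%) and 1111 of the negative genes (78.1%), against 63.1% of all genes.

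**Figure D1:**
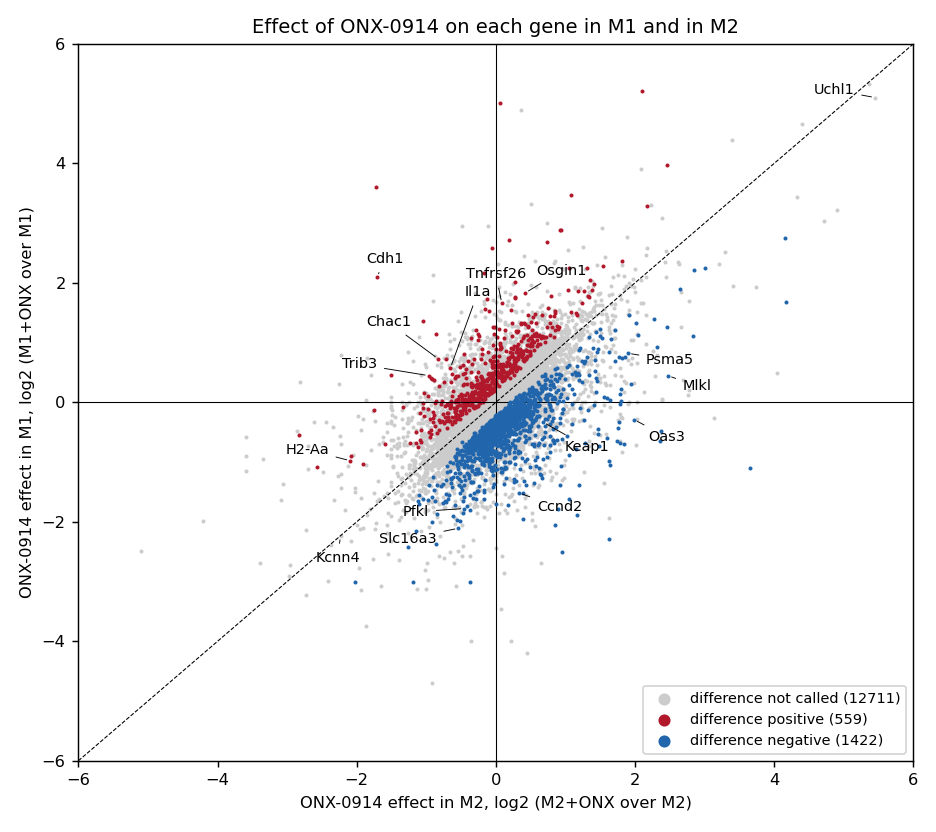
Each point is a gene, with its ONX-0914 effect in M2 on the x axis and in M1 on the y axis (both log2, M with ONX-0914 over M without). The 559 genes with a positive difference (red) lie above the dashed line of equal effects and the 1422 with a negative difference (blue) lie below it, while 12711 genes in grey had no difference called; 3 genes lie outside the axes.

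A large part of the response was alike in both states. ONX-0914 moved 3534 genes in the same direction in M1 and in M2. For 2267 of these the 95% interval of the difference lay within 0.5 on the log2 scale of 0, with 965 raised and 1302 lowered. Uchl1, a ubiquitin hydrolase best known from neurons, had 110, 94.9, 97 and 100 CPM in M1 with ONX-0914, against 3.25, 3.74, 2.54 and 2.27 CPM in M1. In M2 cells Uchl1 had 79.9, 91.1, 76.9 and 82 CPM with ONX-0914, against 1.65, 1.9, 2.21 and 1.74 CPM without. All libraries with the inhibitor lay far above those without it. Its log2 effects were 5.10 in M1 and 5.45 in M2, and their difference of -0.35 ± 0.18 (SE) did not pass the test (edgeR adjusted p = 0.225). The 95% interval of that difference, -0.71 to 0.02, reached beyond 0.5, so Uchl1 is not among the 2267.

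Strong changes among the 2267 genes were closer in size. Zwint, a kinetochore protein gene, rose by 2.10 in M1 and 2.16 in M2 on the log2 scale (difference -0.06 ± 0.07, SE). Me1, malic enzyme and a target of NRF2, rose by 2.53 in M1 and 2.44 in M2. Sod1, the cytosolic superoxide dismutase, rose by 2.05 in M1 and 2.09 in M2. Downward, Kcnn4, a calcium-activated potassium channel gene, had a log2 effect of -2.24 in M1 and -2.23 in M2. Igf1, insulin-like growth factor 1, had -1.49 in M1 and -1.41 in M2. Arg1 fell alike in both states: its log2 effect was -1.05 in M1 and -1.01 in M2, and the difference was -0.04 ± 0.17 (SE, edgeR adjusted p = 0.935). Mrc1, the mannose receptor, had -0.71 in M1 and -0.56 in M2.

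Proteasome subunit genes rose in both states, and several 20S core genes rose less in M1. All 14 tested genes of the constitutive 20S core rose in M1 and all 14 in M2. The difference was negative for 7 of the 14 and positive for 0, with a median difference of -0.27, against -0.07 over all genes. Across the settings tried the negative count ran from 5 to 7. M1 replicate 2 was the highest M1 library for 10 of the 14 genes. Without it 6 were negative and the median was -0.195. Psma5 (chromosome 3, 108256926 to 108279974, GRCm38), an α ring subunit, had 358, 334, 344 and 346 CPM in M1 with ONX-0914, against 198, 212, 176 and 196 CPM in M1. In M2 cells Psma5 had 199, 209, 189 and 185 CPM with ONX-0914, against 57.1, 53.8, 51.7 and 46.7 CPM without. The groups did not overlap in either state, and M1 cells without the inhibitor already stood at the level that M2 cells reached with it. Its log2 effect was 0.82 in M1 and 1.90 in M2, a difference of -1.08 ± 0.09 (SE, edgeR adjusted p = 2.66e-09). On the CPM scale the mean rises were close to each other.

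The α ring genes Psma4 (-0.55 ± 0.07), Psma3 (-0.50 ± 0.09), Psma7 (-0.44) and Psma2 (-0.43) had negative differences on the same scale. Psmb5, the constitutive catalytic subunit that PSMB8 replaces, rose by 0.88 in M1 and 1.08 in M2, with no difference called (-0.20 ± 0.11, edgeR adjusted p = 0.264). Of the 18 genes of the 19S regulatory particle, which unfolds substrates, 17 rose in each state. A negative difference was called for 4 (2 with the 16 libraries alone or with no filter on low counts), against 9.68% of all genes. Psmd11, a scaffold subunit, had 354, 353, 358 and 353 CPM in M1 with ONX-0914, against 122, 136, 127 and 130 CPM in M1. In M2 cells Psmd11 had 208, 220, 207 and 217 CPM with ONX-0914, against 57.2, 59.2, 54.5 and 54.4 CPM without. Every library with the inhibitor was above every library without it, and the difference of the log2 effects was -0.46 ± 0.07 (SE, edgeR adjusted p = 2.26e-05).

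The immunoproteasome genes moved the other way. Psmb8, which encodes the target of ONX-0914, had 235, 249, 246 and 262 CPM in M1 with ONX-0914, against 361, 438, 342 and 346 CPM in M1. In M2 cells Psmb8 had 38.5, 46.2, 42.3 and 39.5 CPM with ONX-0914, against 50.8, 50.2, 46 and 50.9 CPM without. The M1 groups did not overlap, while M2 replicate 3 without the inhibitor was below replicate 2 with it. The fall was called in M1 (log2 -0.58) and in M2 (log2 -0.25). The difference of -0.34 ± 0.10 (SE) was called (edgeR adjusted p = 0.0254), but the call was lost with DESeq2 size factors, with the 16 libraries alone, with the median difference set to 0 and when any of 3 single libraries was left out (M1 with ONX-0914 replicate 1, M2 replicate 3 or M2 with ONX-0914 replicate 2). Psmb9 and Psmb10 fell in both states with no difference called. The reads of Psmb9 are uncertain, because it overlaps Tap1 and the sources used here state no strand setting.

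Of 16 genes of proteasome assembly, other regulators and NRF1 activation, 1 was positive and 3 negative (2 and 1 with the 16 libraries alone), and of 10 ubiquitin and deubiquitinase genes 1 was positive. Pomp, the chaperone that completes the 20S core, rose by 0.30 in M1 and 0.82 in M2 (difference -0.52 ± 0.08, SE, edgeR adjusted p = 2.41e-05). Nploc4, a cofactor of the p97 ATPase that releases NRF1 from the endoplasmic reticulum, rose by 1.17 in M1 and 1.44 in M2 (difference -0.27 ± 0.07, SE). Nfe2l1 itself, which encodes NRF1, fell in both states, with log2 effects of -0.28 in M1 and -0.51 in M2. Its difference of 0.23 was called (edgeR adjusted p = 0.0458) but kept the call in 2 of the 16 fits that left out a library. Usp14, a deubiquitinase bound to the proteasome, went the opposite way from the core genes, with log2 effects of 1.48 in M1 and 0.57 in M2 (difference 0.91 ± 0.20, SE, edgeR adjusted p = 0.00266). Its reads overlap those of Thoc1 on the opposite strand, and M1 replicate 2 had 33.4 CPM of it against 76.8 to 90 CPM in the other M1 libraries.

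**Figure D2:**
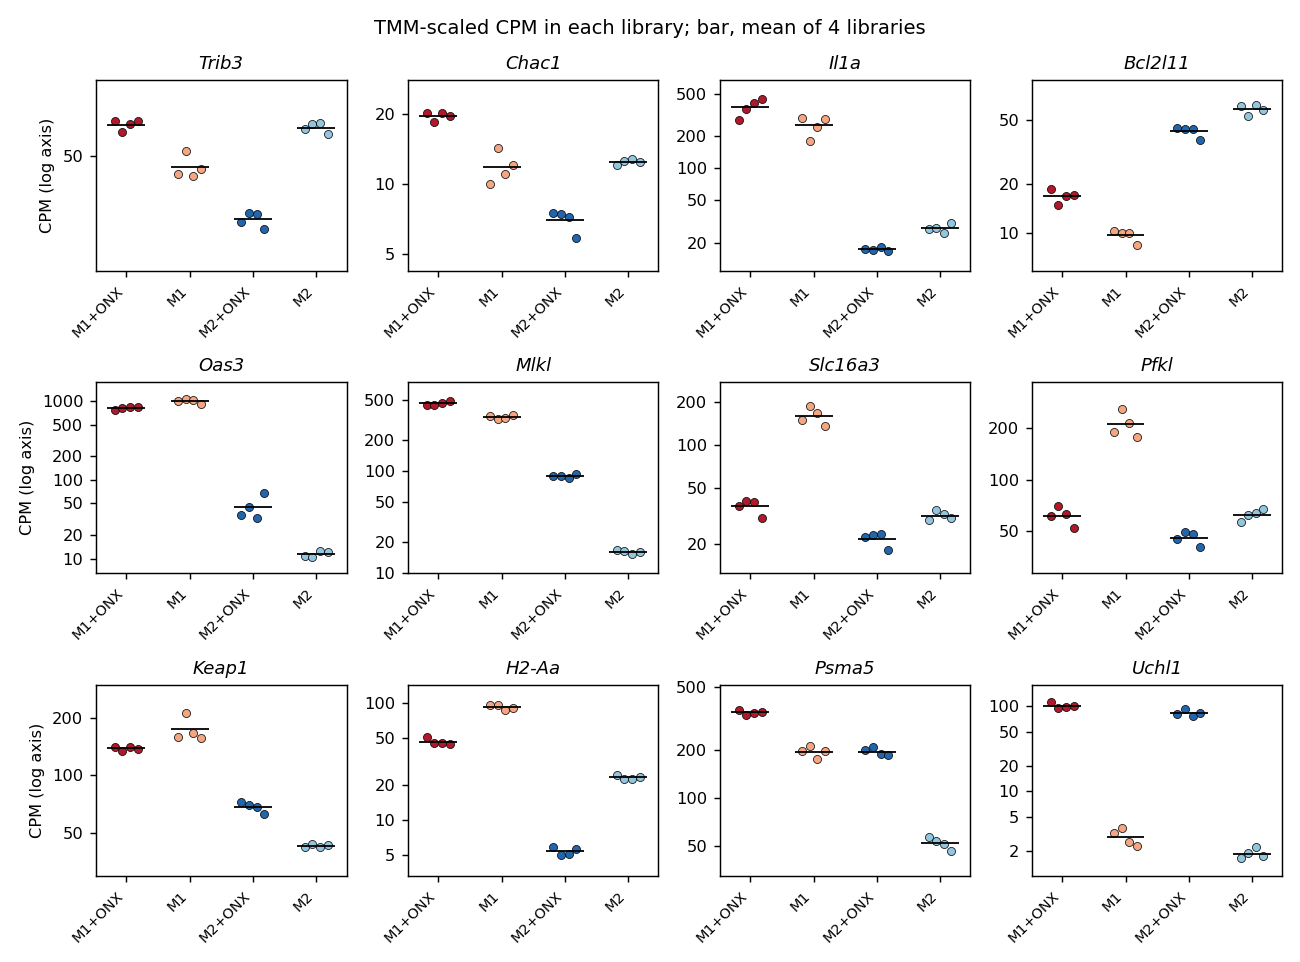
Level of 12 genes in each library (CPM, log axis), with the groups in the order M1 with ONX-0914, M1, M2 with ONX-0914 and M2; points are libraries and bars are means of 4. Trib3, Chac1 and Bcl2l11 were higher with the inhibitor in M1 and lower with it in M2, Keap1 the reverse, and Uchl1 was higher with it in both.

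Many ATF4 genes had positive differences. The list holds genes that ATF4 induces when amino acids run short or the endoplasmic reticulum is stressed. Of its 22 tested genes, 14 had a positive difference and 1 a negative one, with a median difference of 0.41, against -0.07 over all genes. The same 14 genes were called positive in every setting tried. In M1, 9 of the 22 rose and 8 fell; in M2, 2 rose and 14 fell. The median log2 effect was 0.04 in M1, -0.36 in M2 and -0.60 in M0.

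Trib3, a pseudokinase that ATF4 induces and that holds the pathway back, had 64.3, 59.4, 63.3 and 64.4 CPM in M1 with ONX-0914, against 44, 51.8, 43.2 and 45.5 CPM in M1. In M2 cells Trib3 had 31, 33, 32.7 and 29.3 CPM with ONX-0914, against 60.7, 63, 63.7 and 58.6 CPM without. All 4 M1 libraries with the inhibitor were above all 4 without it, and in M2 all 4 were below. Its effects were 0.45 in M1 and -0.97 in M2, a difference of 1.41 ± 0.13 (SE, edgeR adjusted p = 1.92e-08).

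Chac1, which degrades glutathione, had 20.2, 18.4, 20.1 and 19.6 CPM in M1 with ONX-0914, against 10, 14.3, 11 and 12 CPM in M1. In M2 cells Chac1 had 7.49, 7.43, 7.2 and 5.85 CPM with ONX-0914, against 12, 12.5, 12.8 and 12.4 CPM without. Here too the groups were separate and in opposite order in the 2 states. The effects were 0.73 in M1 and -0.83 in M2 (difference 1.56 ± 0.16, SE, edgeR adjusted p = 1.65e-07).

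Sesn2, a leucine sensor that restrains mTORC1, had 76.6, 81.4, 79.9 and 82.9 CPM in M1 with ONX-0914, against 47.9, 58.4, 49.1 and 52.6 CPM in M1. In M2 cells Sesn2 had 38.6, 40, 38.3 and 38.3 CPM with ONX-0914, against 50.4, 54.5, 56.7 and 53 CPM without. It was higher in every M1 library with the inhibitor and lower in every M2 library with it (difference 1.09 ± 0.10, SE, edgeR adjusted p = 3.24e-08). Ddit3, which encodes the stress factor CHOP, had effects of 0.34 in M1 and -0.74 in M2. Asns, asparagine synthetase, had 0.29 in M1 and -0.33 in M2, and Slc7a5, the large neutral amino acid transporter, 0.25 in M1 and -0.34 in M2; all 3 differences and all 6 effects were called.

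Other members differed by how far they fell. Psat1 of serine synthesis had log2 effects of -0.28 in M1 and -0.69 in M2, and Aldh18a1 of proline synthesis -0.24 and -0.72 in the same order. Mthfd2 of mitochondrial folate metabolism was at 0.01 in M1 with no call and fell to an effect of -0.56 in M2. Slc3a2, the partner chain of Slc7a5, and Ppp1r15a, the phosphatase subunit GADD34, rose in both states and more so in M1. Stc2, stanniocalcin 2, was the negative exception (-0.88 in M1, against 0.13, not called, in M2), and its call was lost with the 16 libraries alone, with the median difference set to 0 and without M1 replicate 2, among other settings.

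The promoters of Chac1 and Trib3 are shown because both genes moved in opposite directions in the 2 states. They are RefSeq promoters of GRCm38.p6, from 250 bases before to 50 after the start site, written along the gene's strand. Capitals mark a match to TGATGNAA, the core of the C/EBP-ATF response element to which ATF4 binds with C/EBP partners, searched on both strands. This motif was added to the search after the values had been seen. The Chac1 window is chr2:119350992-119351291 on the plus strand and the Trib3 window chr2:152344011-152344310 on the minus strand.
Chac1: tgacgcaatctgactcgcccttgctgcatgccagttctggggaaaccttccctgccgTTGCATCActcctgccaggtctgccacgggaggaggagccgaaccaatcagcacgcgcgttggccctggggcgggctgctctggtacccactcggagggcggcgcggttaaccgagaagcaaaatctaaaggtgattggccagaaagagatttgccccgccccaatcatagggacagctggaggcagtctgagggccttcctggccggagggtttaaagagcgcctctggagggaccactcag
Trib3: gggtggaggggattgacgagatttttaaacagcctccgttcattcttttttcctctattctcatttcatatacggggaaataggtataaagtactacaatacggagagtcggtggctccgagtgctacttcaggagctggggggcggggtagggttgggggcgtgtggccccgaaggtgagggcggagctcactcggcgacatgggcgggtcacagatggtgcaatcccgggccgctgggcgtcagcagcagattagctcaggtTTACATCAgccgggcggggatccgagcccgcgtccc
Both matches read TGATGNAA on the strand opposite to the gene. In Chac1 the first base of the match is at -193 from the start site, and in Trib3 at 15. Of 10482 tested genes with a promoter in the RefSeq table, 298 (2.84%) held the motif. It was in 26 of 440 promoters of positive genes (5.91%), in 32 of 1098 of negative genes (2.91%) and in 7 of 21 of the ATF4 list (33.3%). A match of letters is a description and not a binding site.

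Several genes of the NRF2 pathway rose more in M2. Of 24 NRF2 targets, 13 rose in M1 and 19 in M2, and the difference was negative for 8 and positive for 2 (4 and 3 with the 16 libraries alone, 5 negative with the median difference set to 0). M1 replicate 2 was the highest M1 library for 15 of the 24 genes. They summed to 43635 CPM in it and to 29951 to 31324 CPM in the rest of M1. Without that library 8 were negative and 3 positive. Keap1, the adaptor that marks NRF2 for degradation, had 142, 135, 141 and 138 CPM in M1 with ONX-0914, against 160, 213, 168 and 158 CPM in M1. In M2 cells Keap1 had 72.3, 69.8, 68.3 and 63 CPM with ONX-0914, against 41.8, 43.7, 41.9 and 43.1 CPM without. It was lower with the inhibitor in all M1 libraries and higher in all M2 libraries, with effects of -0.33 in M1 and 0.68 in M2 (difference -1.01 ± 0.11, SE, edgeR adjusted p = 1.23e-07).

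Gsr, glutathione reductase, rose by 0.26 in M1 and 0.83 in M2 (difference -0.58 ± 0.06, SE, edgeR adjusted p = 3.38e-07). Prdx1, a peroxiredoxin, rose by 0.35 in M1 and 0.88 in M2 (difference -0.52 ± 0.09, SE). Osgin1, an oxidative stress-induced growth inhibitor, was the largest exception, at 17.3, 14.5, 15.9 and 14.5 CPM in M1 with ONX-0914, against 4.01, 4.98, 3.7 and 4.78 CPM in M1. In M2 cells Osgin1 had 6.4, 5.98, 7 and 6.45 CPM with ONX-0914, against 4.59, 4.9, 4.42 and 5.35 CPM without. Both states rose, and M1 rose further (difference 1.41 ± 0.19, SE, edgeR adjusted p = 9.04e-06). Sqstm1, the autophagy receptor p62, rose by 1.18 in M1 and 0.95 in M2, and the difference of 0.23 did not pass the test (edgeR adjusted p = 0.0534; it passed without M1 replicate 2 and with a replicate block). Hmox1, heme oxygenase 1, had no called effect in either state.

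Heat shock genes rose in both states, 17 of 20 in M1 and 18 of 20 in M2, with 2 positive and 4 negative differences (3 positive and 2 negative with the 16 libraries alone). Bag3, a cochaperone of HSP70, had 103, 99.7, 104 and 102 CPM in M1 with ONX-0914, against 46.3, 51.4, 49.3 and 45.8 CPM in M1. In M2 cells Bag3 had 121, 120, 120 and 119 CPM with ONX-0914, against 85.9, 91.5, 93 and 95.7 CPM without. The groups were separate in both states, and the M1 rise was larger (1.08 in M1 and 0.39 in M2, difference 0.69 ± 0.08, SE, edgeR adjusted p = 1.03e-06). Dnajb4, an HSP40 gene, rose by 2.05 in M1 and 1.35 in M2. Hspa1a, an inducible HSP70 gene, rose by 2.22 in M1 and 2.84 in M2, but its reads are hard to part from its near-identical copy Hspa1b, which had no difference called. Of 23 autophagy genes, 3 had a positive and 2 a negative difference, where 3.8% and 9.68% of all genes did, and with the 16 libraries alone there were 5 and 0. Gabarapl1, an ATG8 family member, rose by 1.34 in M1 and 0.78 in M2 (difference 0.56 ± 0.08, SE, edgeR adjusted p = 1.57e-05). Of 19 unfolded protein response genes, 3 were positive and 1 negative, against 3.8% and 9.68% of all genes. Herpud1, a gene of endoplasmic reticulum degradation, rose by 0.59 in M1 with no call in M2 (-0.04).

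**Figure D3:**
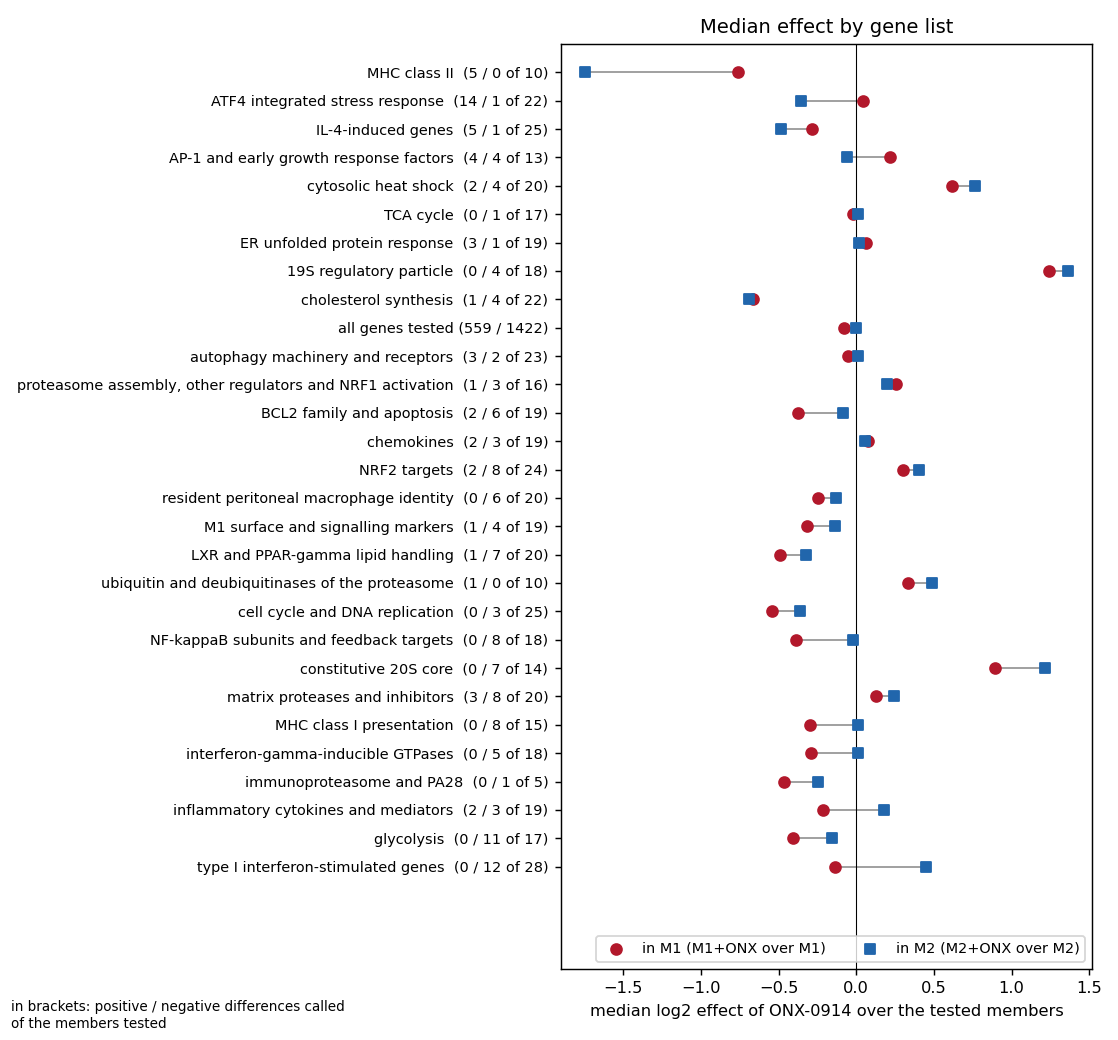
Median log2 effect of ONX-0914 in M1 (red circles) and in M2 (blue squares) for the gene lists, with the number of tested genes and of positive and negative differences in brackets. The ATF4 list and the MHC class II list lie higher in M1 than in M2, and the interferon-stimulated, glycolysis, NF-κB and 20S core lists lie lower.

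Some interferon-stimulated genes had negative differences, and none a positive one. Type I interferon-stimulated genes are antiviral genes switched on by interferon receptor signalling. Of the 28 listed, 12 had a negative difference and 0 a positive one, with a median of -0.52, against -0.07 over all genes. In M1, 1 rose and 6 fell, where 16.6% and 27.7% of all genes did. In M2, 12 rose and 0 fell, where 17.6% and 18.8% of all genes did. Summed over the 28 genes, levels were 27524, 29022, 29593 and 29643 CPM in M1 with ONX-0914, against 31929, 31079, 32183 and 31865 CPM in M1. In M2 cells the sum was 503, 607, 505 and 815 CPM with ONX-0914, against 470, 466, 468 and 468 CPM without. The groups did not overlap in either state, but the M2 sum with ONX-0914 was highest in replicate 4, and without that library 7 genes were negative and the median was -0.29. With the 16 libraries fitted alone 5 were negative, and without both replicate 4 and M1 replicate 2 there were 11 negative and 1 positive. Leaving out M2 with ONX-0914 replicate 1 gave 16 negative genes and leaving out replicate 3 gave 17.

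Oas3 (chromosome 5, 120753098 to 120777661, GRCm38), a sensor of double-stranded RNA that makes oligoadenylate, had 771, 810, 846 and 843 CPM in M1 with ONX-0914, against 991, 1053, 1024 and 924 CPM in M1. In M2 cells Oas3 had 35.5, 45.1, 32.8 and 67.6 CPM with ONX-0914, against 10.7, 10.6, 12.3 and 12 CPM without. Every M1 library with the inhibitor was below every one without it, and in M2 every one was above, including the 3 besides replicate 4. Its effects were -0.29 in M1, not called, and 1.99 in M2 (difference -2.27 ± 0.20, SE, edgeR adjusted p = 7.57e-09), and the difference was -2.02 without replicate 4.

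Isg20, an antiviral exonuclease, had 88.9, 101, 103 and 111 CPM in M1 with ONX-0914, against 145, 225, 131 and 166 CPM in M1. In M2 cells Isg20 had 5.49, 6.43, 4.72 and 6.25 CPM with ONX-0914, against 1.56, 2.35, 2.38 and 1.88 CPM without. Both pairs of groups were separate, in opposite order (effects -0.72 and 1.48 in M1 and M2, difference -2.20 ± 0.23, SE, edgeR adjusted p = 1.18e-07). Mx1, an antiviral GTPase, stood at 1239 to 1372 CPM in M1 with ONX-0914 and at 1231 to 1244 CPM in M1. In M2 cells Mx1 had 1.34, 1.76, 0.894 and 3.47 CPM with ONX-0914, against 0.321, 0.95, 0.65 and 0.627 CPM without. The M2 groups overlapped; the difference was -1.46 ± 0.33 (SE, edgeR adjusted p = 0.00293), and -0.97 without replicate 4. Rtp4, a transporter chaperone, lost its call without replicate 4 (difference -1.57 with it and -0.79 without).

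**Figure D4:**
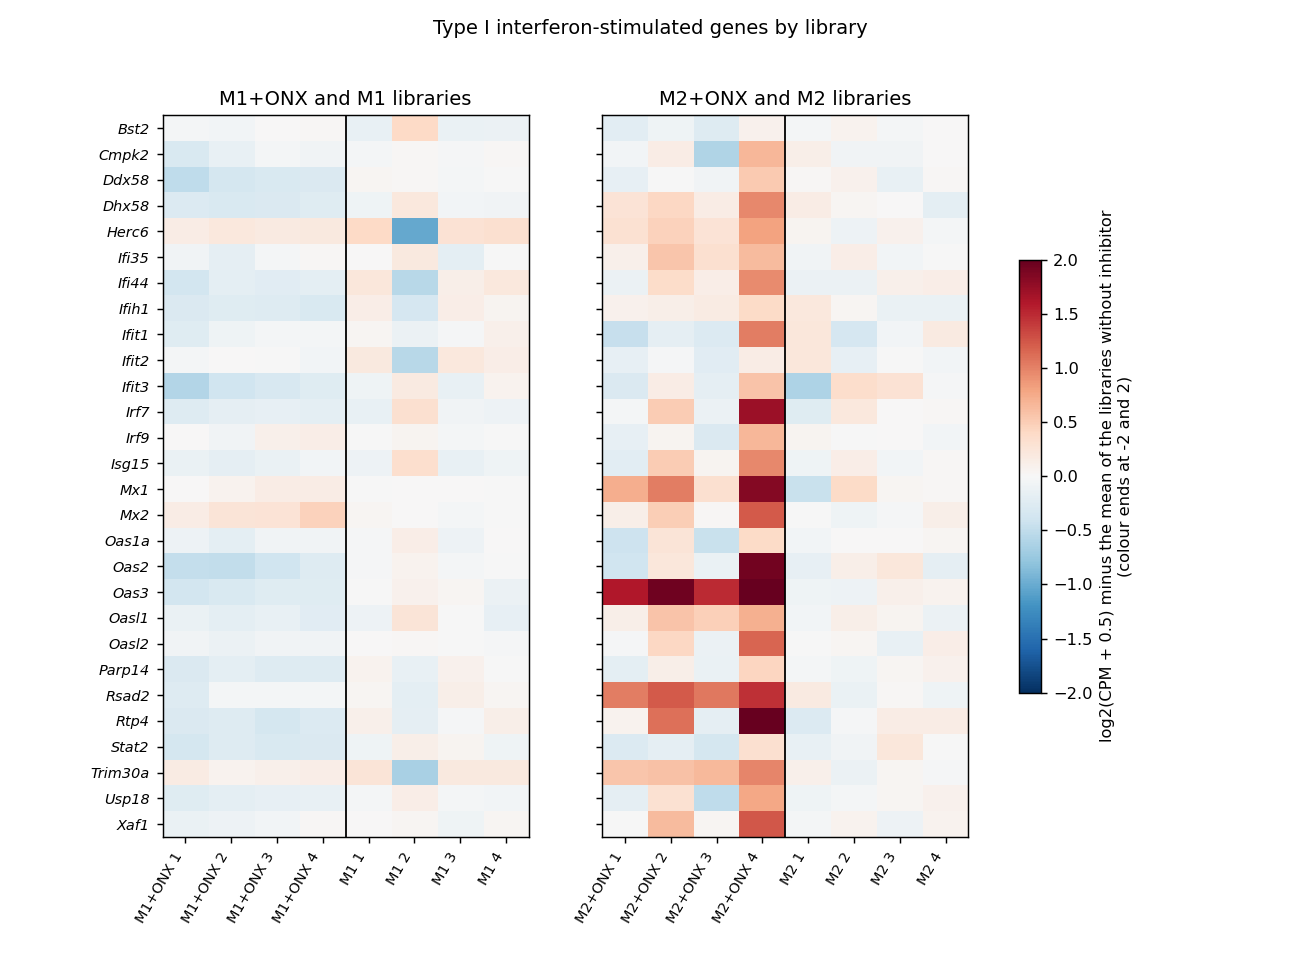
Level of 28 type I interferon-stimulated genes in each library, as log2(CPM + 0.5) minus the mean of the libraries without ONX-0914 of the same state (colours end at -2 and 2). M2 with ONX-0914 replicate 4 was the highest of its group for all 28 genes, and Oas3 was raised in all 4 M2 libraries with the inhibitor.

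Interferon-γ-inducible GTPases, which attack vacuoles of intracellular microbes, had 5 negative and 0 positive differences among 18 tested (3 negative with the 16 libraries alone), and 12 fell in M1. M2 with ONX-0914 replicate 4 was the highest of its group for 14 of the 18, which summed to 174 CPM in it and to 127 to 141 CPM in the other 3 libraries, and without it 4 were negative. Irgm1 had 1003, 885, 946 and 926 CPM in M1 with ONX-0914, against 1070, 956, 1061 and 1080 CPM in M1. In M2 cells Irgm1 had 45.7, 47.7, 40.7 and 56.4 CPM with ONX-0914, against 35.1, 30.8, 32.5 and 36.3 CPM without. The M1 groups overlapped and the M2 groups did not (effects -0.15, not called, in M1 and 0.50 in M2, difference -0.65 ± 0.10, SE, edgeR adjusted p = 4.21e-05), and the difference was -0.56 without replicate 4. Gbp2 had effects of -0.05, not called, in M1 and 0.63 in M2, a difference of -0.67 that was -0.50 without replicate 4. Gbp5, a guanylate-binding protein that aids inflammasomes, fell in M1 (-0.36) with no call in M2.

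The promoters of Oas3 and Irgm1 are shown beside these values, again from RefSeq (GRCm38.p6), along the gene's strand. Capitals mark a pair of overlapping matches to GAAANNGAA, the core of the interferon-stimulated response element, searched on both strands. The windows are chr5:120777610-120777909 and chr11:48871371-48871670, both on the minus strand.
Oas3: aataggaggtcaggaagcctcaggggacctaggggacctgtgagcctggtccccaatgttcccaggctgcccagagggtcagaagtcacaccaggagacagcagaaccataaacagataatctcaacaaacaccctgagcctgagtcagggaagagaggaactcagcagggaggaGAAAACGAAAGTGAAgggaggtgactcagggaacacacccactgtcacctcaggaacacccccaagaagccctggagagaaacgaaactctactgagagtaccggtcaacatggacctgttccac
Irgm1: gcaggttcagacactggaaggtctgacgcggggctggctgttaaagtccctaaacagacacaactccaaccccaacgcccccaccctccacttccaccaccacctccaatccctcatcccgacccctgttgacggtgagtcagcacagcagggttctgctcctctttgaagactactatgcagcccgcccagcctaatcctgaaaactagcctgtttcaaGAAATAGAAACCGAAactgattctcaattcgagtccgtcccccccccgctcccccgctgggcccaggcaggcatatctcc
In both genes the matches lie before the start site. The motif was in 942 of the 10482 promoters (8.99%), in 12 of 21 of the interferon-stimulated list (57.1%) and in 10 of 11 of the GTPases (90.9%). Among all positive genes 6.82% held it, and among all negative genes 10.5%. The antioxidant response element TGACNNNGC was in 17% of all promoters, in 20% of positive and 15.5% of negative genes, and in 8 of 20 NRF2 targets. The gamma-activated site TTCNNNGAA was in 8.27% of all, 8.41% of positive and 8.83% of negative genes.

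MHC class I presentation genes were lower in the M1 effect for 8 of 15 tested (5 with the 16 libraries alone), with a median difference of -0.32 and no positive call. In M1, 10 fell and 1 rose, and in M2, 5 rose and 2 fell. Summed over the list, levels were 24563, 23693, 24390 and 24462 CPM in M1 with ONX-0914, against 22679, 27182, 22783 and 22665 CPM in M1. In M2 cells the sum was 9903 to 10230 CPM with ONX-0914 and 8352 to 9210 CPM without. M1 replicate 2 was the highest M1 library for 12 of the 15 genes. Without it 9 were negative and the median difference was -0.28. Tap2, a subunit of the transporter that carries peptides from the proteasome to MHC class I, had 178, 189, 196 and 205 CPM in M1 with ONX-0914, against 269, 320, 269 and 258 CPM in M1. In M2 cells Tap2 had 36.2, 41, 37.8 and 37.2 CPM with ONX-0914, against 33.4, 33.8, 37.1 and 32.3 CPM without. M1 was separate and lower with the inhibitor, and the M2 groups overlapped (difference -0.69 ± 0.10, SE, edgeR adjusted p = 9.86e-06). Tapbp, tapasin, was not called in M1 (-0.04) and rose in M2 (0.58; difference -0.61 ± 0.09, SE). H2-Q7 and H2-Q6 also had negative differences, but the H2-Q genes are close copies whose reads are hard to part.

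MHC class II genes moved in the opposite sense. They fell in both states, 7 of 10 in M1 and 9 of 10 in M2, and fell further in M2: 5 had a positive difference (4 to 6 across settings) and 0 a negative one, with a median of 0.88. M1 with ONX-0914 replicate 1 was the highest of its group for 8 of the 10 genes, and without it 4 were positive and the median was 0.55. H2-Aa, an α chain, had 51.1, 45.8, 45.6 and 44.1 CPM in M1 with ONX-0914, against 95.1, 95.2, 87.1 and 90.3 CPM in M1. In M2 cells H2-Aa had 5.87, 4.97, 5.11 and 5.61 CPM with ONX-0914, against 24.2, 22.2, 22.4 and 23.1 CPM without. All groups were separate. The level with the inhibitor was 0.508 times that without it in M1 and 0.234 times in M2, a log2 difference of 1.11 ± 0.10 (SE, edgeR adjusted p = 2.06e-08). On the CPM scale the M1 drop was the larger one. H2-Eb1 (difference 1.19), H2-Ab1 (0.90), Ciita, the master regulator of the class (0.87), and Cd74, the invariant chain (0.37), made up the other positive genes.

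B cells also express MHC class II, and B cell transcripts fell beside these genes. Of 14 B cell markers 11 were tested, 10 fell in each state, and none was at 0 in any group. Their sum was 40.4 to 45.8 CPM in M1 with ONX-0914 and 79.9 to 91.5 CPM in M1, and 60.9 to 68.4 CPM in M2 with ONX-0914 and 117 to 125 CPM in M2. Most of the sum was Cd22. Over the 11 tested markers the median log2 effect was -2.095 in M1 and -1.940 in M2. For the MHC class II genes it was -0.760 in M1 and -1.745 in M2. The difference between the states was called for 1 of the 11, Pax5, whose highest group mean was 2.16 CPM. The part of B cells in the MHC class II values was not tested. In pooled cells of this kind, fewer cells of a type and less RNA per cell cannot be told apart. Among the markers of T and NK cells, mast cells, eosinophils and dendritic cells that could be tested (2, 4, 2 and 5 genes) no difference was called in edgeR's test, and 1 of 4 neutrophil markers, Csf3r, was negative.

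Many genes of NF-κB signalling fell in M1. Of 18 subunits and feedback genes, 14 fell in M1, while 5 fell and 2 rose in M2. The difference was negative for 8 (5 with the 16 libraries alone) and positive for 0, with a median of -0.26. M1 replicate 2 was the highest M1 library for 14 of the 18 genes. Without it 8 were negative and the median was -0.27. Nfkbiz, an IκB family regulator of secondary response genes, had 83, 92.8, 99.7 and 105 CPM in M1 with ONX-0914, against 155, 150, 143 and 143 CPM in M1. In M2 cells Nfkbiz had 5.68, 6.13, 6.31 and 6.6 CPM with ONX-0914, against 5.05, 5.35, 6.11 and 5.55 CPM without. M1 was separate and lower, and M2 overlapped (difference -0.80 ± 0.12, SE, edgeR adjusted p = 5.38e-05). Icam1, an adhesion molecule, was not called in M1 (-0.07) and rose in M2 (0.57). Irak3, a brake on Toll-like receptor signalling, fell in M1 (-0.85) with no call in M2 (difference -0.90 ± 0.10, SE); its reads overlap those of Tmbim4 on the opposite strand.

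Cytokine genes did not share a direction: 2 of 19 were positive and 3 negative, where 3.8% and 9.68% of all genes were. Il1a, interleukin-1α, had 284, 360, 412 and 440 CPM in M1 with ONX-0914, against 296, 181, 241 and 287 CPM in M1. In M2 cells Il1a had 17.4, 17.3, 18.4 and 16.7 CPM with ONX-0914, against 26.8, 27.3, 24.7 and 30.8 CPM without. M1 with ONX-0914 replicate 1 lay below 2 of the M1 libraries, while all M2 libraries were lower with the inhibitor. Effects were 0.57 in M1 and -0.65 in M2 (difference 1.23 ± 0.18, SE, edgeR adjusted p = 1.77e-05), and the difference was 1.10 without M1 replicate 2.

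Ptgs2, the inducible cyclooxygenase, had 507, 547, 556 and 536 CPM in M1 with ONX-0914, against 977, 646, 941 and 902 CPM in M1. In M2 cells Ptgs2 had 20.8, 20.5, 18.8 and 22.8 CPM with ONX-0914, against 14, 15.9, 14.8 and 13.2 CPM without. The groups were separate, lower with the inhibitor in M1 and higher in M2 (effects -0.69 and 0.52, difference -1.21 ± 0.15, SE, edgeR adjusted p = 2.49e-06). Ptges, the prostaglandin E synthase that works with it, had effects of -0.33 in M1 and 0.54 in M2. Tnf was not called in M1 (-0.06) and fell in M2 at a low level (-0.65; 2 to 3.08 CPM with ONX-0914 and 3.21 to 4.29 CPM without), and its difference of 0.59 lost its call without M2 with ONX-0914 replicate 1. For Nos2, Il12b and Il6 no difference was called, and their levels in M2 were under 1 CPM with and without the inhibitor. Nos2 fell in M1 (-1.16). Among 19 chemokines, 2 were positive and 3 negative, against 3.8% and 9.68% of all genes. Cxcl16, a membrane-bound chemokine, was not called in M1 (0.07) and rose in M2 (0.84, difference -0.77 ± 0.11, SE, edgeR adjusted p = 1.07e-05). Its reads overlap those of Zmynd15 on the opposite strand. Ccl5 was among the largest negative differences (-1.81), but its M2 level with ONX-0914 was 4.76 CPM in replicate 4 against 0.603 to 0.894 CPM in the others, and without that library the difference was -0.58 and not called.

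Many glycolysis genes had lower effects in M1. M1 macrophages are known to rely on glycolysis. Of 17 tested, 12 fell and 3 rose in M1, and 8 fell and 5 rose in M2. The difference was negative for 11 (6 with the 16 libraries alone) and positive for 0, with a median of -0.46. M1 replicate 2 was the highest M1 library for 15 of the 17 genes. Without it 11 were negative and the median was -0.36. Slc16a3, the lactate exporter MCT4, had 37.3, 40.2, 39.9 and 30.7 CPM in M1 with ONX-0914, against 150, 188, 166 and 135 CPM in M1. In M2 cells Slc16a3 had 22.4, 23.3, 23.8 and 18.3 CPM with ONX-0914, against 29.5, 34.6, 32.8 and 30.6 CPM without. All groups were separate, and the M1 level with the inhibitor came down close to the M2 level without it. The level with ONX-0914 was 0.232 times that without in M1 and 0.689 times in M2 (log2 difference -1.57 ± 0.14, SE, edgeR adjusted p = 7.52e-09).

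Pfkl, the liver-type phosphofructokinase, had 61.1, 70.6, 62.9 and 52.1 CPM in M1 with ONX-0914, against 191, 261, 216 and 178 CPM in M1. In M2 cells Pfkl had 45.2, 49.2, 47.9 and 40.4 CPM with ONX-0914, against 56.7, 62.4, 63.7 and 67.2 CPM without. It fell in both states, to 0.292 times in M1 and 0.731 times in M2 (log2 difference -1.32 ± 0.13, SE, edgeR adjusted p = 5.76e-08). Tpi1, Eno1 and Ldha fell in both states and more in M1, whereas Pkm and Pgk1 had other patterns. Pkm rose by 0.15 in M1 and 0.64 in M2, and Pgk1 fell in M1 (-0.25) and rose in M2 (0.24). Gapdh could not be read, since the SD of its libraries exceeded their mean in each group. The TCA cycle list had 1 negative call among 17, below the 9.68% of all genes: Ogdh, a subunit of the oxoglutarate dehydrogenase complex. With the 16 libraries alone it had 2 positive and 1 negative.

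Cholesterol synthesis genes fell in both states, 21 of 22 in M1 and 21 of 22 in M2, with 1 positive and 4 negative differences. The positive one was Sc5d, a sterol desaturase gene, which fell less in M1 (-0.32, against -0.60 in M2). Dhcr7, the last enzyme of the pathway, fell more in M1: it had 3.85, 3.24, 3.85 and 4.21 CPM in M1 with ONX-0914, against 9.04, 12.5, 9.53 and 7.87 CPM in M1. In M2 cells Dhcr7 had 85.1, 88.1, 87.6 and 80.5 CPM with ONX-0914, against 127, 139, 133 and 138 CPM without. Groups were separate in both states (difference -0.70 ± 0.13, SE, edgeR adjusted p = 0.000458), though in CPM the M2 drop was larger. The other 3 negative calls of the list were lost under several settings, down to 1 with DESeq2 size factors. Of 20 genes regulated by LXR and PPARγ, 7 were negative and 1 positive. Abcg1, a cholesterol exporter, had 41.9, 41.1, 38.6 and 34.4 CPM in M1 with ONX-0914, against 83.1, 99.6, 110 and 81.1 CPM in M1. In M2 cells Abcg1 had 176, 182, 178 and 170 CPM with ONX-0914, against 219, 233, 242 and 233 CPM without. It fell in both, further in M1 (difference -0.87 ± 0.10, SE, edgeR adjusted p = 1.14e-06), and Abca1 and Nr1h3, which encodes LXRα, did the same. Cpt1a, which brings fatty acids into mitochondria, fell in M1 (-0.79) with no call in M2 (-0.07).

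IL-4-induced genes had 5 positive and 1 negative difference among 25 (5 and 3 without M1 replicate 2). In M1, 4 of the 25 rose and 8 fell, and in M2, 1 rose and 14 fell. Of all genes, 27.7% fell in M1 and 18.8% in M2. The median log2 effect of the list was -0.28 in M1 and -0.48 in M2. Cdh1, E-cadherin, had the largest positive fitted value, but it rests on 11 counts in M1 with ONX-0914 and 2 in M1, so no size is given. In M2 cells Cdh1 fell to 4.01, 4.32, 4.22 and 3.87 CPM with ONX-0914, against 12.5, 15.1, 14.3 and 11.7 CPM without. Cish, a feedback inhibitor of cytokine receptors, had 9.25, 5.88, 8.01 and 6.82 CPM in M1 with ONX-0914, against 2.8, 3.18, 3.7 and 3.34 CPM in M1. In M2 cells Cish had 29.7, 31, 32.8 and 32.6 CPM with ONX-0914, against 28.4, 31.3, 28 and 27.2 CPM without. M1 was separate and higher, and the M2 groups overlapped (difference 1.07 ± 0.21, SE, edgeR adjusted p = 0.000573). Egr2, a transcription factor of alternative activation, rose in M1 (0.78) with no call in M2 (0.05; difference 0.73 ± 0.10, SE, edgeR adjusted p = 8.08e-06). Ch25h, cholesterol 25-hydroxylase, was the negative one, falling in M1 (-0.83) with no call in M2 (0.27).

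Genes of cell death differed in both directions. Bcl2l11, the pro-apoptotic BH3 protein BIM, had 18.8, 14.9, 17 and 17.1 CPM in M1 with ONX-0914, against 10.4, 10, 10 and 8.44 CPM in M1. In M2 cells Bcl2l11 had 44.3, 43.7, 44 and 37.5 CPM with ONX-0914, against 60.4, 52.4, 61.3 and 57.3 CPM without. The groups were separate and in opposite order (effects 0.80 in M1 and -0.45 in M2, difference 1.25 ± 0.12, SE, edgeR adjusted p = 4.10e-08). Pmaip1, the BH3 protein NOXA, rose in M1 (0.96) with no call in M2 (0.06). The BCL2 and caspase list as a whole had 2 positive and 6 negative calls among 19, and 3 negative with DESeq2 size factors, with the median difference set to 0 or with the 16 libraries alone.

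Mlkl (chromosome 8, 111311797 to 111338177, GRCm38), the pseudokinase that opens the membrane in necroptosis, had 449, 450, 470 and 484 CPM in M1 with ONX-0914, against 349, 328, 332 and 352 CPM in M1. In M2 cells Mlkl had 89.4, 89.5, 85.2 and 94.4 CPM with ONX-0914, against 16.7, 16.4, 15.2 and 15.9 CPM without. Replicates lay close together and all groups were separate. It rose 1.36-fold in M1 and 5.57-fold in M2, a log2 difference of -2.03 ± 0.08 (SE, edgeR adjusted p = 6.96e-16). In CPM the M1 rise was the larger one. Its effect in M0 was 1.53.

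Large positive differences were also found outside these lists. Tnfrsf26, a TNF receptor family gene, had 48.1, 53.7, 52.2 and 59 CPM in M1 with ONX-0914, against 16.7, 15.3, 17.5 and 17.8 CPM in M1. In M2 cells Tnfrsf26 had 110, 115, 113 and 113 CPM with ONX-0914, against 110, 103, 106 and 105 CPM without. The rise was called in M1 (1.66) and not in M2 (0.09; difference 1.57 ± 0.10, SE, edgeR adjusted p = 2.27e-11). Efcc1, an EF-hand gene, had 14.8, 16.5, 19.6 and 17.8 CPM in M1 with ONX-0914, against 4.84, 4.85, 5.95 and 4.6 CPM in M1. In M2 cells Efcc1 had 12.9, 15.5, 15.1 and 15.1 CPM with ONX-0914, against 12.4, 12.2, 11.7 and 12.4 CPM without, so M1 cells with the inhibitor came up to the M2 range (difference 1.49 ± 0.13, SE, edgeR adjusted p = 4.44e-09).

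Clec2i, a C-type lectin-like ligand of NK cell receptors, had 33.5, 28.9, 29.7 and 33 CPM in M1 with ONX-0914, against 2.74, 0.969, 1.67 and 2.52 CPM in M1. In M2 cells Clec2i had 58.4, 53.5, 56.2 and 57.2 CPM with ONX-0914, against 11.3, 10.4, 8.88 and 10.5 CPM without. It rose strongly in both states, 15.8-fold in M1 and 5.48-fold in M2 (log2 difference 1.52 ± 0.18, SE, edgeR adjusted p = 1.08e-06), and the CPM rise was larger in M2. Aqp9, a channel for glycerol and water, rose in M1 (1.08) with no call in M2 (-0.35), and Ttll11, a tubulin polyglutamylase gene, did likewise (1.52, against -0.10). Lhx2, a LIM homeobox factor, had no called effect in M1 at 45.8 to 58.9 CPM and fell in M2 at a low level, with 0.446 to 0.603 CPM with ONX-0914 and 0.9 to 2.39 CPM without.

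Large negative differences were likewise found outside the lists. Ccnd2, cyclin D2, had 24, 26.6, 26 and 25.7 CPM in M1 with ONX-0914, against 70.7, 73.9, 79.8 and 68 CPM in M1. In M2 cells Ccnd2 had 5.63, 5.58, 4.97 and 6.6 CPM with ONX-0914, against 4.54, 4.1, 4.72 and 4.73 CPM without. It fell in every M1 library with the inhibitor and was slightly higher in every M2 library (effects -1.52 and 0.33, difference -1.85 ± 0.14, SE, edgeR adjusted p = 7.96e-10). Il12rb1, a subunit of the IL-12 receptor, fell in M1 to 67.3, 50.2, 49.8 and 41.5 CPM with ONX-0914, against 83.3, 84.6, 91.3 and 66.9 CPM without. In M2 cells Il12rb1 had 0.301 to 0.497 CPM with ONX-0914 and 0 to 0.138 CPM without (difference -2.99 ± 0.62, SE, edgeR adjusted p = 0.00128), so its M2 effect rests on few counts.

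Cst7, cystatin F, an inhibitor of lysosomal proteases, had 40.6, 40.5, 42.6 and 46 CPM in M1 with ONX-0914, against 66.2, 65.2, 63 and 63.2 CPM in M1. In M2 cells Cst7 had 0.621, 0.753, 1.59 and 1.49 CPM with ONX-0914, against 0.459, 0.35, 0.173 and 0.482 CPM without. Both pairs were separate, in opposite order (difference -2.20 ± 0.35, SE, edgeR adjusted p = 5.58e-05). Spata13, a guanine nucleotide exchange factor, had effects of -0.53 in M1 and 1.47 in M2. S1pr3, a receptor for sphingosine 1-phosphate, fell in M1 (-1.71) with no call in M2 (0.18), and Dmtn, dematin of the membrane skeleton, did so as well (-1.27, against 0.66). Gpr31a, a G protein-coupled receptor gene, had the largest negative fitted value, but it was at 0 counts in all 4 M2 libraries and at 0.0477 to 0.151 CPM with ONX-0914, so no size is given. Its call was lost with the 16 libraries alone and in 5 of the 16 fits that left out a library, which were each of the 4 M2 libraries and M2 with ONX-0914 replicate 2.

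Matrix proteases and their inhibitors had 3 positive and 8 negative differences among 20. Mmp14, a membrane-bound collagenase, had 724, 764, 779 and 756 CPM in M1 with ONX-0914, against 1232, 1516, 1260 and 1216 CPM in M1. In M2 cells Mmp14 had 133, 130, 129 and 163 CPM with ONX-0914, against 115, 124, 128 and 121 CPM without. Its clear fall in M1 (-0.79) stood beside a small rise in M2 (0.19; difference -0.98 ± 0.10, SE, edgeR adjusted p = 9.23e-08). Serpinb2, PAI-2, rose in both states and more in M2 (0.53 and 1.43 in M1 and M2). Fibroblasts express several of these genes, and markers of mesothelial, fibroblast and endothelial cells were present: 13 of 14 were tested, none was at 0 in any group, and they summed to 803 to 914 CPM in M1 with ONX-0914 and 830 to 1026 CPM in M1, and to 809 to 951 CPM in M2 with ONX-0914 and 735 to 918 CPM in M2. Pdgfra and Pdgfrb had negative differences and the other 11, among them Col1a1 and Dcn, had none called; the part of these cells in the protease values was not tested.

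Surface and identity genes gave smaller differences. Cd274, which encodes the checkpoint ligand PD-L1, had 2621, 2511, 2520 and 2427 CPM in M1 with ONX-0914, against 2696, 2371, 2790 and 2546 CPM in M1. In M2 cells Cd274 had 192, 215, 212 and 229 CPM with ONX-0914, against 353, 322, 347 and 320 CPM without. The M1 groups overlapped and the M2 groups were separate and lower with the inhibitor (difference 0.61 ± 0.09, SE, edgeR adjusted p = 1.20e-05). The list of M1 surface and signalling markers had 1 positive and 4 negative differences among 19, where 3.8% and 9.68% of all genes had them. With the 16 libraries alone or with the median difference set to 0, 2 were negative. Csf1r, the receptor for the macrophage growth factor CSF1, fell in both states and more in M1 on the log2 scale (-0.77, against -0.32 in M2; difference -0.45 ± 0.08, SE). Of 20 identity genes of resident peritoneal macrophages 6 were negative and 0 positive, but 3 were with the median difference set to 0 and 1 with the 16 libraries alone. Of 25 cell cycle genes, 20 fell in M1 and 14 in M2, where 27.7% and 18.8% of all genes fell. Of the 25, 3 had a negative difference (0 with the 16 libraries alone), against 9.68% of all genes. Of 13 AP-1 and early growth response genes 4 were positive and 4 negative (2 negative with the 16 libraries alone); Batf, an AP-1 family member, fell more in M1 (-1.21, against -0.38 in M2).

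In all, 208 genes were called in opposite directions by ONX-0914, 55 up in M1 and down in M2 and 153 the reverse, and the difference was called for each of them. Cd300a, an inhibitory receptor of myeloid cells, had 183, 154, 156 and 161 CPM in M1 with ONX-0914, against 121, 123, 117 and 110 CPM in M1. In M2 cells Cd300a had 200, 205, 190 and 164 CPM with ONX-0914, against 275, 268, 256 and 255 CPM without. The groups were separate in both states and in opposite order, so that the levels of M1 and M2 came closer under the inhibitor (difference 0.95 ± 0.09, SE, edgeR adjusted p = 3.34e-08). Cd38, an NAD-consuming ectoenzyme of M1 cells, had 197, 213, 211 and 183 CPM in M1 with ONX-0914, against 358, 183, 330 and 335 CPM in M1. In M2 cells Cd38 had 8.78, 9.9, 9.93 and 9.48 CPM with ONX-0914, against 5.37, 7.05, 6.8 and 4.24 CPM without. M1 replicate 2 lay at the level of the treated M1 cells, and the difference was -1.28 with it and -1.46 without it.

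**Figure D5:**
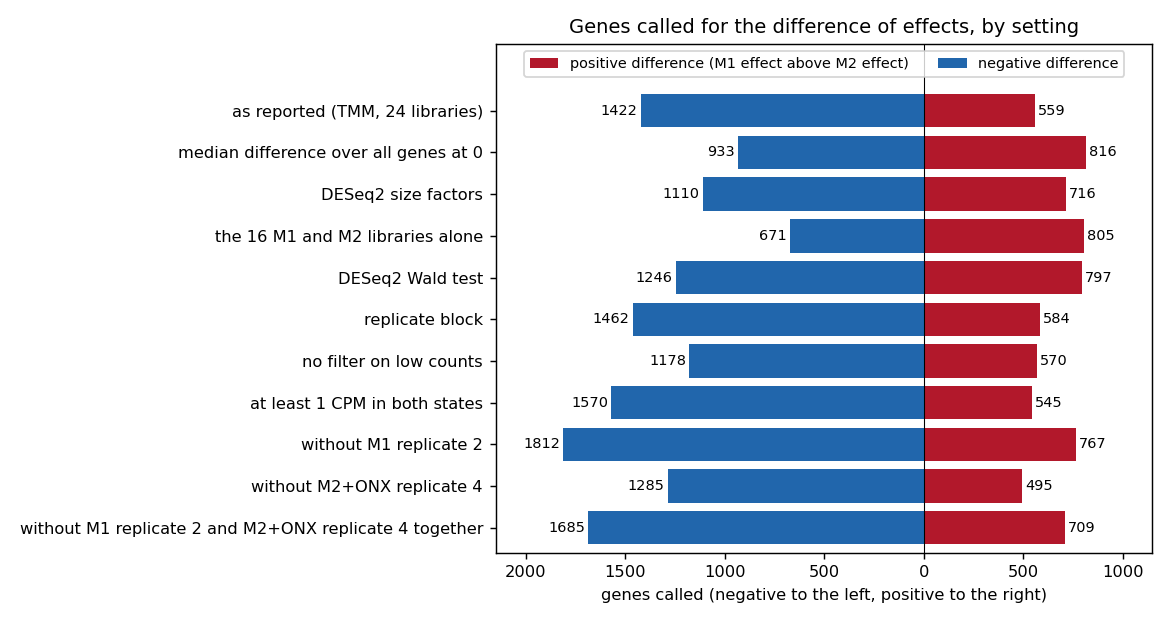
Number of genes with a positive and with a negative difference between the ONX-0914 effects in M1 and M2, for the main test and each other setting. The total stayed between 1476 and 2579, while the share of positive genes ran from 25.8% to 54.5%.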

How the data were processed

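The deposited table held raw counts per Ensembl gene for 24 libraries, without normalization; all values were whole. Per the submitters' processing notes, FastQC 0.11.9, cutadapt 2.8, Bowtie2 2.2.5, Picard and the build mm10 were used. The sources used here name no counting tool, strand setting or annotation, so overlapping genes cannot be parted (Sod1 with Scaf4, Tpi1 with Spsb2, Tapbp with Zbtb22). Of 54532 features 54409 matched a symbol of GENCODE M21 (GRCm38), the source of gene positions; the 123 others held 0.0282% of counts.

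The analysis used edgeR 4.0.16 in R 4.3.3. filterByExpr over the 6 groups left 14692 genes with 99.927% of the counts. After TMM scaling, all 24 libraries entered 1 quasi-likelihood fit that gave each group its own mean (18 residual degrees of freedom). The difference of effects was the contrast (M1 with ONX-0914 minus M1) minus (M2 with ONX-0914 minus M2). A gene counted as called when its p, adjusted over all genes tested by Benjamini-Hochberg, was under 0.05. The SE is the log2 value divided by the square root of F. Intervals are at 95%. P-values measure the spread between these pooled samples. The pipeline was tested on simulated data, in which no library was made to stand apart from its group. Of 150 calls there, 11 (7.33%) fell on genes without a planted difference. Planted differences of 2-fold were called for 45 of 50 genes and those of 1.25-fold for 9 of 50. Far fewer genes were called there than in the data, 150 against 1981, which makes the adjusted threshold stricter. These shares are therefore not the sensitivity of the test in the data.

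Named genes were the 12 largest called differences in each direction and the 6 of each orientation with the strongest opposite effects, with a mean of at least 5 CPM in some group and a symbol that is no clone name, up to 3 called members of each list, fixed markers, and 5 genes each way with like effects. Not every gene chosen by these rules is described. The fixed markers Chil3, Retnla, Mmp12 and Nfe2l2, which encodes NRF2, are left out of the text. Other list members in the text were chosen after their values were seen. The 35 lists and the comparison itself were chosen with earlier results of these data known. Alternatives were DESeq2 1.42.0 size factors, the DESeq2 Wald test, the 16 libraries alone, other count filters, a replicate block, and leaving out each library or both doubted ones together; centring the median at 0 and the C/EBP-ATF motif were chosen after seeing the data. The doubted libraries, M1 replicate 2 and M2 with ONX-0914 replicate 4, were kept in the main results. RefSeq promoters (GRCm38.p6) were matched by symbol for 10482 of 14675 tested symbols.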

Additional observations from a re-analysis of the deposited data

Results flagged for a closer look

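The 4 libraries of a group were screened, gene by gene, for 1 lying apart from the other 3 (Dixon's criterion, which weighs a gap against the range and not its size, so that some gaps are small). Of 479 sets of 4 libraries, 34 met it, where chance gives about 1 in 20. These sets covered a chosen part of the genes and not all 14692 tested, so the share is no rate over all genes. M1 replicate 2 was the library in 18 of the 34. It was above the other M1 libraries in Ccl5 (3824 CPM), Nploc4 (172 CPM), Sdf2l1 (39.5 CPM), Angptl4 (13.7 CPM), Cxcl16 (862 CPM), H2-Ab1 (202 CPM), Mmp14 (1516 CPM), Psmb5 (193 CPM), Psmb9 (286 CPM), Sqstm1 (1807 CPM), Tnf (2506 CPM), Sod1 (85.1 CPM), Igf1 (62.1 CPM) and C5ar1 (33.2 CPM). It was below them in Slamf1 (6.3 CPM), Cd38 (183 CPM), Gsr (149 CPM) and Irgm1 (956 CPM).

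M2 with ONX-0914 replicate 4 was the library in 6 cases, high in Ccl5 (4.76 CPM), Socs3 (16.5 CPM), Gbp2 (43 CPM), Mmp14 (163 CPM) and Serpinb2 (117 CPM) and low in Bcl2l11 (37.5 CPM). M2 with ONX-0914 replicate 1 was high in Aif1l (8.59 CPM) and low in Efcc1 (12.9 CPM) and Egr2 (190 CPM). In the same group replicate 2 was high in Sesn2 (40 CPM), and replicate 3 was low in Ch25h (9.29 CPM) and Mcm3 (25.9 CPM). M1 with ONX-0914 replicate 4 was low in S1pr3 (2.19 CPM) and Nos2 (744 CPM), replicate 3 of that group was low in Sh3d19 (23.1 CPM), and M2 replicate 3 was low in Psmb8 (46 CPM).

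The 12 genes named for the strength of their opposite effects had the effect of ONX-0914 called in opposite directions in M1 and M2, each with the difference itself tested and called by edgeR. Cdh1 had 2 counts in M1 and Gpr31a had 0 counts in M2, so their fitted log2 values, 3.80 for Cdh1 and -4.75 for Gpr31a, depend on the prior count of the fit and are neither sizes nor bounds. The call of Gpr31a was lost with the 16 libraries alone (adjusted p = 0.0575) and in 5 of the 16 fits that left out a library. The others with a positive log2 difference were Chac1 (1.56), Il1a (1.23), Ston2 (1.11), Sesn2 (1.09) and Cd300a (0.95). The others with a negative log2 difference were Il12rb1 (-2.99), Isg20 (-2.20), Cst7 (-2.20), Slamf1 (-1.97) and Cd38 (-1.28).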

How the results depend on the processing

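The number of genes whose ONX-0914 effect differed between M1 and M2 was 1981, and leaving out 1 library at a time gave 1638 to 2579 (470 to 767 positive and 1168 to 1812 negative). The highest counts came without M1 replicate 2 (767 positive and 1812 negative), and without M2 with ONX-0914 replicate 4 there were 495 and 1285. Leaving out 1 library gave 5974 to 6799 genes for the effect in M1 and 4651 to 6374 for the effect in M2. The negative count moved most with the 16 libraries alone (671) and with the median difference set to 0 (933, added after the data were seen). The DESeq2 Wald test called 797 positive and 1246 negative genes, no filter on low counts 570 and 1178, and at least 1 CPM in both states 545 and 1570.

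Whether the replicate numbers pair the samples is not stated in the labels and was not settled by the values. Deviations of same-numbered libraries correlated weakly, at r = -0.061 to 0.192 over 24 pairs, 3 of them above 0.1. Of 16 libraries, 8 correlated best with their own number among the 4 replicate numbers. With a replicate block 2046 genes were called (584 positive and 1462 negative); among named genes the block lost the call of Bmf and gained that of Sqstm1. Of the 126 named genes, 102 kept their side of the threshold with the 16 libraries alone, 113 with the median at 0, 117 with DESeq2 size factors, 119 with the DESeq2 Wald test and 120 without both doubted libraries.

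Differences of genes under 1 CPM rest on few counts. The median gene had a 95% interval of 0.318 to either side on the log2 scale, without adjustment for the number of genes tested. Smaller unequal effects were mostly not detectable, and calls after adjustment needed more than this. In simulated counts, 9 of 50 planted differences of 1.25-fold were called, and 36 of 50 of 1.5-fold. Fewer genes were called there than in the data, so the adjusted threshold was stricter and the shares do not carry over.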
